A study of Homo sapiens with 4 samples.

Results

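The RNAs described here are the 2 ribosomal RNAs encoded by the mitochondrial genome, MT-RNR1 (ENSG00000211459), the RNA of the small subunit of the mitochondrial ribosome, and MT-RNR2 (ENSG00000210082), the RNA of its large subunit. Their members are the eCLIP and input peaks on chrM that the deposited lists place under either gene identifier. These came to 179 peaks of 568810 over the 4 libraries, in 2 of 17764 genes. The pair was selected on measured values: several of the eCLIP peaks with most reads and lowest p-values lie in MT-RNR2. The reads and p-values of those peaks are therefore given as a description, and no test of eCLIP against input was made.

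Mitochondrial ribosomal RNAs are transcribed together from one strand of the mitochondrial genome, with a transfer RNA gene before, between and after them, and are cut out of a long precursor. They stay inside the organelle, where they form the ribosome that makes the subunits of the respiratory chain encoded by mitochondrial DNA. They are among the most abundant RNAs of most cells. ZFR is a zinc finger protein of the DZF family that binds double-stranded RNA and is known for roles in the nucleus.

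Enhanced crosslinking and immunoprecipitation (eCLIP) recovers the stretches of RNA that crosslinking by ultraviolet light has fixed to a chosen protein. The 4 libraries came from HEK-293 Flp-In TREx cells, a human embryonic kidney line with FLAG-ZFR integrated at its FRT site, and comprised 2 eCLIP libraries (eCLIP 1 and eCLIP 2) and 2 size-matched inputs (input 1 and input 2), which are made from the same kind of lysate without selecting the protein. All 4 libraries, the inputs included, came from polyclonal cells that carried the transgene and were induced with doxycycline at 1 µg/mL for 48 to 72 h and crosslinked at 400 mJ/cm2. No library came from uninduced cells or from cells with the tag alone among those analysed here, and whether the 2 libraries of a kind were grown as separate cultures is not in the labels, so their spread may be technical.

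The lists were of very unequal length: 458932 and 39168 distinct peaks in eCLIP 1 and eCLIP 2, against 60227 and 10483 in inputs 1 and 2. The reads in those peaks summed to 2944100, 216406, 238392 and 98185 in the same order. Sequencing depth is unknown, since the lists hold peaks and not whole libraries. Peaks on chrM held 3.62% and 9.10% of the reads in the eCLIP lists and 1.75% and 31.7% in the inputs, so input 2 stood apart from the other 3 libraries. Read sums carry a further limit. Many peaks in these RNAs touch the next one and are narrower than a sequenced fragment, so a read that crosses a border may be counted in both. Some shares are therefore also given with the highest peak of each touching region alone.

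Both RNAs were listed in every library. MT-RNR2 held 60 peaks in eCLIP 1, 32 in eCLIP 2, 13 in input 1 and 25 in input 2. For MT-RNR1 the lists held 26, 10, 6 and 7 peaks in the same order. Every one of these peaks lay on the plus strand, and no library listed a minus-strand peak inside the span of either gene's peaks. The peaks of MT-RNR1 ran from position 673 to 1561 of chrM (hg19, counted from 1), a span of 889 bases, and those of MT-RNR2 from 1702 to 3167, a span of 1466 bases. Which mitochondrial reference sequence these positions follow is not given in the sources used here, so they mark the peaks and not the ends of the genes.

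As a share of all reads in peaks, MT-RNR2 took 2.07% in eCLIP 1 and 6.16% in eCLIP 2, against 1.14% in input 1 and 28.4% in input 2. The inputs lay on both sides of the eCLIP libraries, and the groups overlapped. The mean was 4.12% ± 2.89 (SD, n = 2) in eCLIP and 14.8% ± 19.3 (SD, n = 2) in the input, a log2 ratio of eCLIP to input of -1.85. That direction rested on input 2: without it the log2 ratio was 1.86. Between the libraries numbered 1, the eCLIP share was 1.83 times that of the input, while between those numbered 2 the input share was 4.62 times that of eCLIP. With the highest peak of each touching region alone, eCLIP 1 was lower than input 1, at 0.859% against 1.08%. Ranked by summed reads, MT-RNR2 was the gene in place 1 in eCLIP 2 and input 2, and in place 2 in eCLIP 1 and input 1.

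MT-RNR1 took 0.625% and 0.621% of the reads in eCLIP 1 and eCLIP 2, against 0.245% in input 1 and 1.02% in input 2. The eCLIP shares were nearly equal and lay between the inputs. Their mean was 0.623% ± 0.0030 (SD, n = 2), and that of the inputs 0.630% ± 0.544 (SD, n = 2), a log2 ratio of -0.02 that was 1.34 without input 2. Of 8914 genes with 10 or more peaks in all libraries together, 25.2% had both eCLIP values higher than both inputs and 9.0% had both lower. Neither ribosomal RNA belonged to either class with all libraries and all listed peaks. These shares of genes depended on the libraries compared. The share with higher eCLIP values was 32.5% without eCLIP 1, 42.9% without eCLIP 2, 54.9% without input 1 and 30.4% without input 2. The share with lower eCLIP values was 17.0%, 11.2%, 14.3% and 44.5% in the same order. Without input 2, both ribosomal RNAs were among the genes with higher eCLIP values when all listed peaks were used. For MT-RNR2 this order was lost with p-values of at most 0.001, at 4.02% in eCLIP 1 against 4.21% in input 1. With peaks of at least 10 reads it was lost for both RNAs. MT-RNR2 then took 5.62% in eCLIP 1 against 10.3% in input 1, and MT-RNR1 1.69% and 1.90% in eCLIP against 2.23%. With all listed peaks, both libraries numbered 2 lay above both numbered 1 for MT-RNR2, which held for 4.68% of the same 8914 genes.

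**Figure D1:**
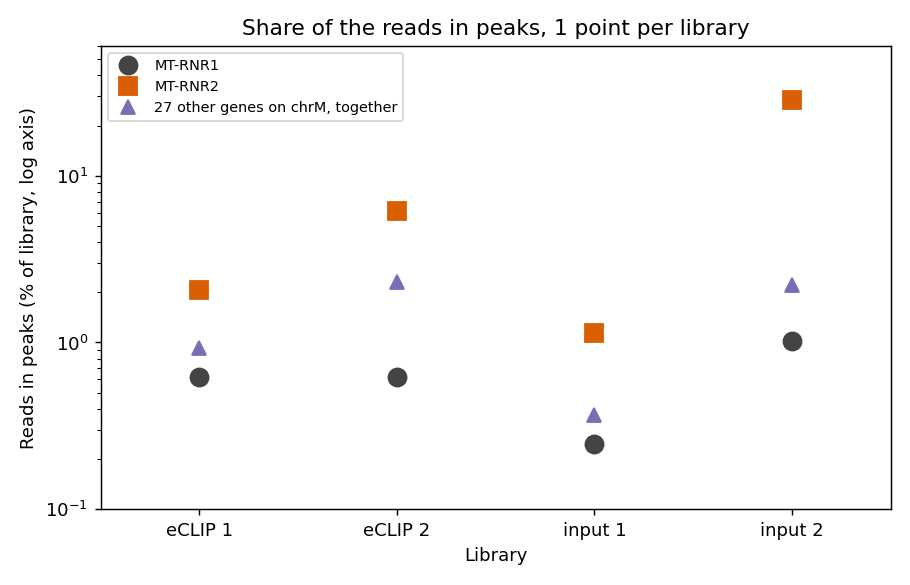
Share of the reads in peaks (percent of the library, log axis) for MT-RNR1 (circles), MT-RNR2 (squares) and the 27 other genes listed on chrM together (triangles), with 1 point per library and no error bars. The point for MT-RNR2 in input 2, at 28.4%, lies above all others, and for both ribosomal RNAs the eCLIP points fall between the inputs.

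The other 27 genes with peaks on chrM gave the setting for these shares. Together they held 0.920% and 2.32% of the reads in eCLIP and 0.366% and 2.22% in the inputs. No single one of them exceeded 0.586%, the highest share in input 2. By share of reads, 5 of the 27 had both eCLIP libraries above both inputs and 0 had both below. Among these 5, ENSG00000210077, ENSG00000210164 and ENSG00000210191 were listed in neither input, with eCLIP shares of at most 0.0097%. ENSG00000210049 was listed in both inputs and ENSG00000212907 in input 2 alone. The 27 genes were held to no minimum number of peaks, unlike those behind the 25.2% above. No background share is therefore given for the 5 of 27. Within chrM, MT-RNR2 took 57.3% and 67.7% of the reads in eCLIP and 65.0% and 89.8% in the inputs, whereas MT-RNR1 took 17.3% and 6.82% against 14.0% and 3.21%. On this scale, too, the groups overlapped for both RNAs.

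The genes listed at the borders of the ribosomal RNAs were low by comparison. Between the spans of the 2 ribosomal RNAs, ENSG00000210077 held 1 peak of 67 reads at 1615 to 1638 in eCLIP 1 and 1 of 11 reads at 1617 to 1639 in eCLIP 2, and neither input listed one. Just before MT-RNR1, the nearest peak of ENSG00000210049 held 187 reads in eCLIP 1, 69 in eCLIP 2, 15 in input 1 and 3 in input 2. That of input 2 was 2 bases wide, at 586 to 587, and did not overlap the others, which lay between 610 and 644. The RefSeq table of genes (GRCh38.p14) places a transfer RNA gene at each of these borders, but the files do not pair it with the identifiers. After MT-RNR2, the nearest peak of eCLIP 1 held 80 reads, at 3240 to 3270 under ENSG00000209082. In the other libraries it lay under ENSG00000198888, with 24 reads in eCLIP 2, 11 in input 1 (3337 to 3381) and 8 in input 2 (3574 to 3589).

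In MT-RNR2 the median width was 7.5 bases in eCLIP 1 and 13.5 in eCLIP 2, against 29 in input 1 and 16 in input 2. In MT-RNR1 the medians were 9, 19, 41.5 and 23 bases. For both genes each eCLIP median lay below each input median, as it did in 31.1% of the 752 genes with 3 or more peaks in every library, and the median over each whole list was 28 bases. In eCLIP 1, 38 of the 60 peaks of MT-RNR2 were under 10 bases wide and 2 were a single base. There 36 of the peaks touched the next one, as did 20 in eCLIP 2, 4 in input 1 and 21 in input 2. Merged where they touched, the MT-RNR2 peaks formed 24, 12, 9 and 4 regions in the 4 libraries.

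The smallest listed peaks were far higher in these RNAs than over the lists as a whole. Elsewhere in the lists peaks went down to 3 reads, but in MT-RNR2 the smallest held 597 and 219 reads in eCLIP and 93 and 559 in the inputs. These were 29.4%, 23.3%, 24.0% and 18.5% of the highest peak of MT-RNR2 in the same library. In MT-RNR1 the smallest peaks held 339, 58, 58 and 71 reads, or 23.7%, 26.5%, 39.7% and 31.4% of the highest. A stretch without a listed peak can therefore still hold many reads, and the files do not show how many.

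**Figure D2:**
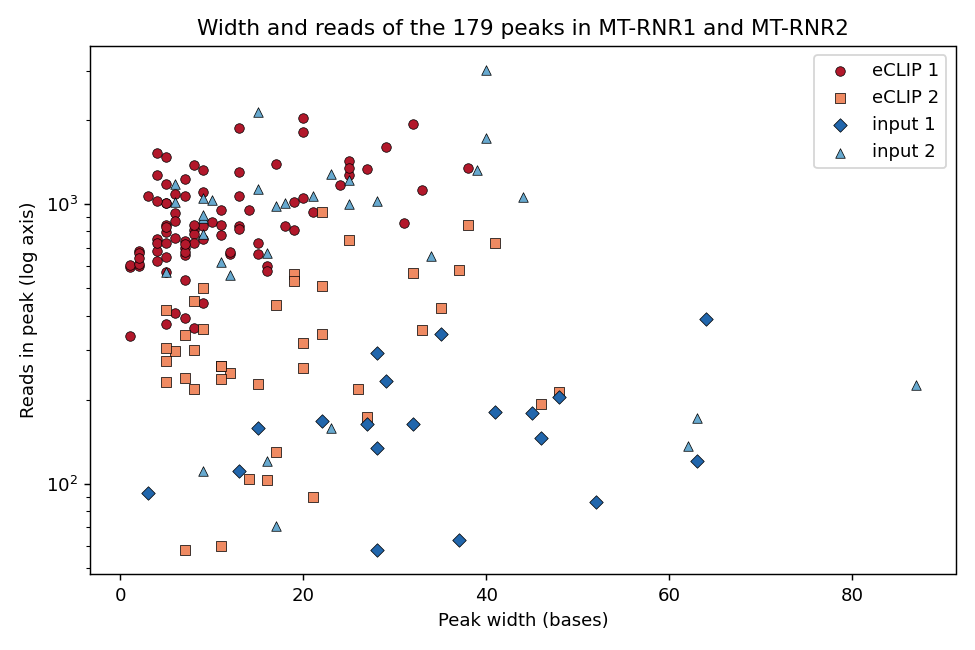
Width (bases) and reads (log axis) of the 179 peaks in MT-RNR1 and MT-RNR2, with 1 point per peak and the library by colour and shape. The points of eCLIP 1 crowd at the narrow end, with a median width of 7.5 bases in MT-RNR2, and those of input 1 lie at greater widths and fewer reads.

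Of the 82 distinct peaks listed with a deposited p-value of 0 in eCLIP 1, 35 lay in MT-RNR2 and 9 in MT-RNR1. The only such peak of eCLIP 2 lay in MT-RNR2, as did 18 of the 20 of input 2 and 0 of the 2 of input 1. Peaks of this strength were thus not particular to the eCLIP lists. Among the 60 MT-RNR2 peaks of eCLIP 1, those listed at 0 were 5 bases wide at the median, with 1023 reads, and the others 11 bases, with 841 reads. The weakest deposited p-value of the 179 peaks was 5.39e-11, in MT-RNR1 of input 1, so a limit at 0.001 removed no peak.

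Merged over the libraries, the peaks of MT-RNR2 formed 17 regions, of which 3 had peaks in all 4 libraries and 9 in a single one. The region from 2130 to 2445 was the widest, at 316 bases, and held 48.6% and 55.5% of the gene's reads in eCLIP and 38.0% and 65.2% in the inputs. In each library this region held more of the gene's reads than any other, and the highest peak. In eCLIP 1 that was 2404 to 2423 with 2029 reads, and in eCLIP 2 it was 2257 to 2278 with 938 reads. Input 1 had its highest peak at 2237 to 2300 with 388 reads, and input 2 at 2237 to 2276 with 3017 reads. The last 3 of these overlap, and in eCLIP 1 the peak at 2262 to 2274, with 1871 reads, was the third by reads.

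The other regions present in all 4 libraries lay near the 5′ end of the RNA. From 1702 to 1768 the highest peaks held 1929 and 509 reads in eCLIP and 343 and 1002 in the inputs. This region took 7.88% and 14.0% of the gene's reads in eCLIP and 23.5% and 10.3% in the inputs, so the groups overlapped. From 1820 to 1932 the highest peaks held 1175, 568, 234 and 1325 reads, and the region took 26.8% and 22.2% in inputs 1 and 2 and less, 11.2% and 12.3%, in eCLIP 1 and 2. Over both RNAs, 6 regions had peaks in all 4 libraries. In 2 of them, this one and that from 883 to 1001 in MT-RNR1, both eCLIP shares lay below both inputs, and in 0 both lay above. Of the 486 such regions over all genes, 28.2% had both below and 7.61% both above. These counts were chosen after the data were seen. From 2051 to 2102 a peak was listed in both eCLIP libraries, with 1120 and 354 reads, and in input 1, with 180 reads, but not in input 2. Both eCLIP peaks ran from 2051 to 2083 exactly.

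**Figure D3:**
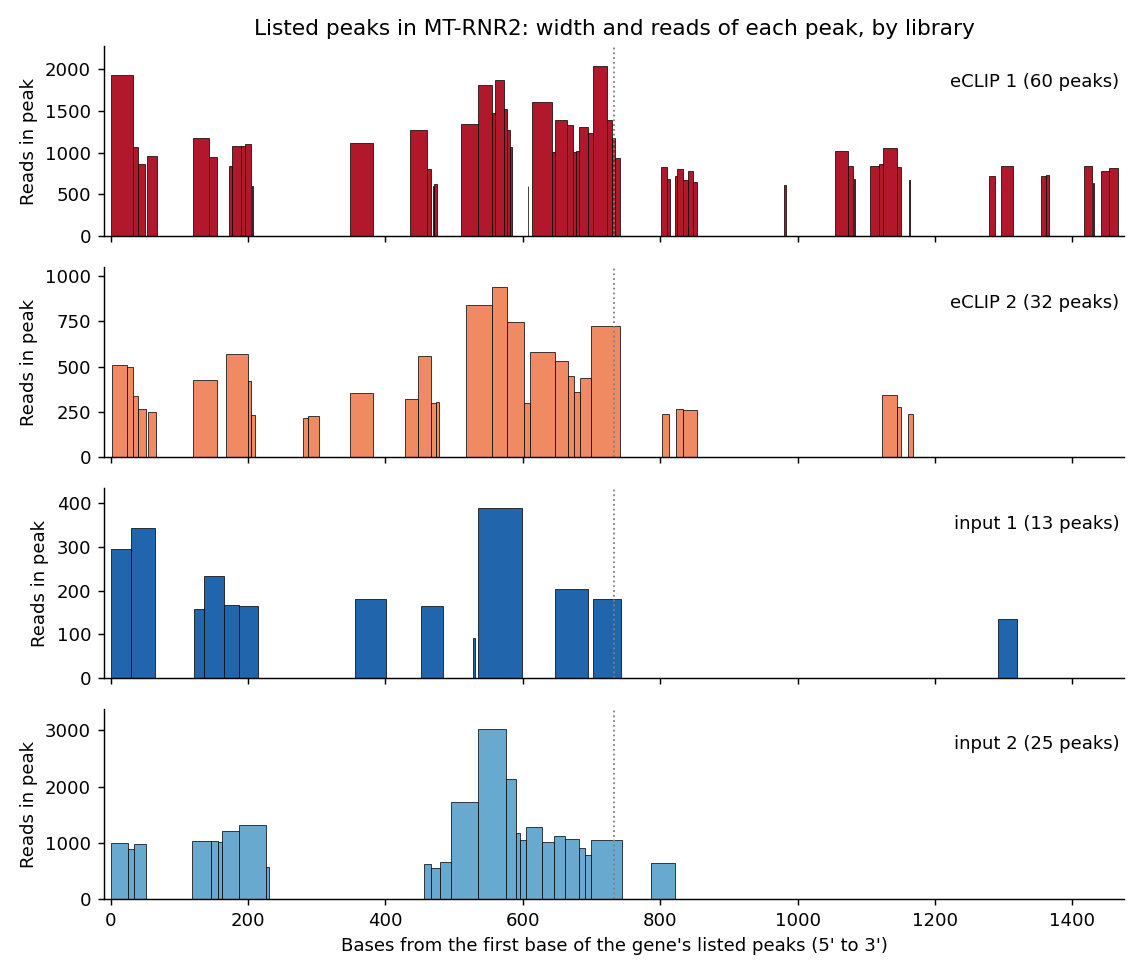
Peaks of MT-RNR2 in the 4 libraries, by distance in bases from the first base of the gene's listed peaks (5′ to 3′), with bar width equal to peak width and bar height equal to reads in the peak, on a scale of its own in each panel. The dotted line marks the midpoint of the span. All 4 libraries have tall peaks between about 500 and 750 bases, and past the midpoint eCLIP 1 lists 25 peaks, eCLIP 2 lists 6 and each input lists 1.

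Past the midpoint of the span, from position 2435 on, the eCLIP libraries held a larger share of the reads in listed MT-RNR2 peaks than the inputs did. That share, with each peak placed at its deposited inner position, was 32.1% in eCLIP 1, 12.2% in eCLIP 2, 4.99% in input 1 and 2.33% in input 2. Both eCLIP libraries lay above both inputs, but they differed from each other by more than eCLIP 2 did from the inputs. The difference of the group means was 18.5 percentage points, 8.51 without eCLIP 1 and 28.4 without eCLIP 2. Of the same 752 genes, 14.1% had both eCLIP libraries above both inputs on this measure and 25.9% had both below. This measure was chosen after the data were seen. Touching peaks may count a read more than once. With the highest peak of each touching region alone, the shares were 43.6% and 22.1% in eCLIP and 7.02% and 10.9% in the inputs. Reads outside listed peaks are not seen. The smallest listed MT-RNR2 peaks of the inputs held 93 and 559 reads, so the share of all reads of the RNA past the midpoint is not known.

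The downstream peaks were few outside eCLIP 1. It listed 25 peaks there, eCLIP 2 listed 6, and each input listed 1. Input 1 had its peak at 2994 to 3021 with 135 reads, and input 2 at 2489 to 2522 with 651 reads. In MT-RNR1, 45.5% and 49.0% of the reads lay past the midpoint in eCLIP and 46.2% and 39.9% in the inputs, so the groups overlapped there. Over all 752 genes the median shares were 42.8%, 39.1%, 49.4% and 46.2% in the same order of libraries.

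**Figure D4:**
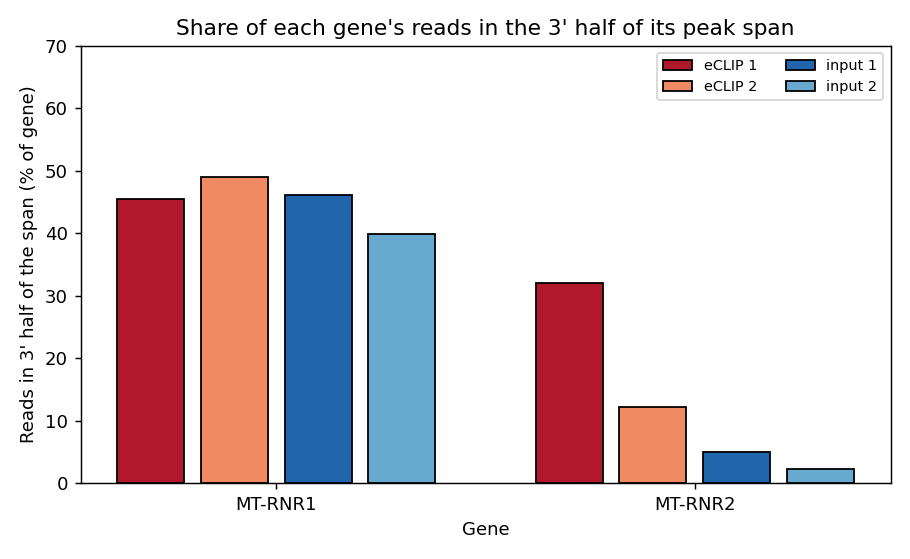
Share of the reads in each gene's listed peaks (percent) that lay past the midpoint of the span of those peaks, 1 bar per library, with no error bars. In MT-RNR1 the 4 bars lie between 39.9% and 49.0%, and in MT-RNR2 they run from 32.1% in eCLIP 1 to 2.33% in input 2.

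Some of the peaks were shared by the eCLIP libraries and free of input. Of the 86 peaks of eCLIP 1 in the 2 RNAs, 67 overlapped a peak of eCLIP 2 by at least 1 base, 51 one of input 1 and 54 one of input 2. Of the 42 peaks of eCLIP 2, 40 overlapped a peak of eCLIP 1, 29 one of input 1 and 30 one of input 2. In the other direction all 19 peaks of input 1 and 27 of the 32 of input 2 overlapped a peak of eCLIP 1. That left 10 peaks (11.6%) of eCLIP 1 that were found in eCLIP 2 and in neither input, 9 of them in MT-RNR2 and 1 in MT-RNR1. Without input 2 the count was 20, and without input 1 it was 14. The same count for the pair of inputs was 2 on input 2 and 0 on input 1, from shorter lists, and the pairs of an eCLIP library with an input gave between 0 and 3. Those pairs, too, include an input list of 19 or 32 peaks, shorter than either eCLIP list. No such share over all peaks of eCLIP 1 is given, so whether 11.6% is high or low is not known.

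These 10 peaks formed 4 places. The first was a run of 5 touching peaks in MT-RNR2 from 2523 to 2554, with 725, 808, 676, 784 and 648 reads in eCLIP 1. Opposite them eCLIP 2 had peaks at 2525 to 2535 with 264 reads and at 2536 to 2555 with 260. The input 2 peak of 651 reads, at 2489 to 2522, touched this run and ended on the base before it, so the place borders on an input peak. Input 1 had its nearest peak, of 181 reads, 78 bases upstream at 2404 to 2444.

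The second place, from 2821 to 2851, lay far from any input peak. eCLIP 1 listed 3 touching peaks there, with 869, 1049 and 828 reads. eCLIP 2 listed peaks at 2825 to 2846 with 345 reads and at 2847 to 2851 with 275, and the peak at 2847 to 2851 had the same borders in both libraries. The third place followed closely, at 2864 to 2865 with 669 reads in eCLIP 1 and at 2863 to 2869 with 239 in eCLIP 2. Between 124 and 167 bases without a peak separated these places from the nearest peak of input 1, and between 298 and 341 bases separated them from that of input 2. Relative to the highest MT-RNR2 peak of the same library, the peaks of both places stood at 33.0% to 51.7% in eCLIP 1 and 25.5% to 36.8% in eCLIP 2. The smallest listed peaks of the inputs stood at 24.0% and 18.5%. In input 1 that was a single peak 3 bases wide, at 2229 to 2231 with 93 reads. The next smallest of input 1 held 135 reads, where its highest held 388. Whether input 1 would have listed a peak as low as the lowest of these places is therefore not known.

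The fourth place was the only one in MT-RNR1. eCLIP 1 had a peak of 857 reads at 782 to 812 and eCLIP 2 one of 60 reads at 794 to 804. In eCLIP 1 this was 59.9% of the highest peak of MT-RNR1 and in eCLIP 2 it was 27.4%. The smallest peaks that the inputs listed in this gene stood at 39.7% and 31.4%, above the value of eCLIP 2. No input peak in this gene was listed at so low a relative height.

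Counted on eCLIP 2, 7 peaks were shared with eCLIP 1 and free of input. They lay at the same 4 places and, in addition, at 2130 to 2149, with 319 reads, where the overlapping peak of eCLIP 1, at 2138 to 2162 with 1269 reads, did reach the inputs. The input 1 peak of 164 reads at 2154 to 2185 began 4 bases after it.

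The inner positions of eCLIP 2 lay within 2 bases of those of eCLIP 1 more often than those of the inputs did. Of the 32 inner positions of eCLIP 2 in MT-RNR2, 24 (75.0%) lay within 2 bases of one of eCLIP 1. Against the same 60 positions of eCLIP 1, 7 of 13 (53.8%) did for input 1 and 12 of 25 (48.0%) for input 2. Of the 32, 9 (28.1%) lay within 2 bases of an inner position of input 2 and 3 (9.38%) of one of input 1, which hold fewer positions. Some of these peaks lie at places that no input listed. In the 3 regions of MT-RNR2 with peaks in all 4 libraries, the counts against eCLIP 1 were 19 of 23 (82.6%) for eCLIP 2, 5 of 11 (45.5%) for input 1 and 11 of 24 (45.8%) for input 2. In MT-RNR1 as a whole the counts against eCLIP 1 were 7 of 10 for eCLIP 2, 1 of 6 for input 1 and 3 of 7 for input 2. Input peaks of MT-RNR2 were also wider at the median, 29 and 16 bases against 13.5 in eCLIP 2, and this was not allowed for. No like share over all genes is given. Neighbouring positions of one RNA share reads, so these counts are a description.

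Peak borders gave a like order for MT-RNR2 with smaller shares. Of the 44 borders of eCLIP 2, 13 (29.5%) were borders of eCLIP 1 to the base. For input 1 this held for 5 of 22 (22.7%) and for input 2 for 3 of 29 (10.3%). The border after position 2236 was common to eCLIP 1 and both inputs, and that after 2348 to both eCLIP libraries and input 1. For borders, too, no share over all genes is given.

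Coarser profiles of MT-RNR2 did not set the eCLIP pair apart. With the reads of MT-RNR2 summed over 15 windows of 100 bases, Pearson's r was 0.826 between the eCLIP libraries, 0.866 between eCLIP 1 and input 2, and 0.880 between eCLIP 2 and input 2. It was 0.695 between the inputs, 0.503 between eCLIP 1 and input 1 and 0.597 between eCLIP 2 and input 1. Windows of one RNA are not independent. In eCLIP 1, eCLIP 2 and input 2 the fullest windows were those from 2202 to 2301 and from 2302 to 2401. They took 17.0% and 16.6% of the gene's reads in eCLIP 1, 18.5% and 20.4% in eCLIP 2, 17.8% and 7.54% in input 1, and 29.8% and 24.2% in input 2. Input 1 differed, with its fullest windows at 1702 to 1801 and 1802 to 1901, which took 23.5% and 23.6%.

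MT-RNR1 had 8 regions over the 4 libraries, 3 of them with peaks in all. The region from 883 to 1001 held the highest peak of eCLIP 1 (918 to 942, 1430 reads), of eCLIP 2 (917 to 942, 219 reads) and of input 1 (928 to 973, 146 reads). In input 2 its highest peak had 159 reads, while the highest of the gene lay at 1229 to 1315 with 226 reads. The region took 30.7% and 32.2% of the gene's reads in eCLIP and 53.8% and 46.3% in the inputs.

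The remaining regions of MT-RNR1 common to all libraries differed little. From 1229 to 1315 lay 19.7% and 22.6% of the reads in eCLIP and 14.7% and 22.7% in the inputs. From 1351 to 1430 lay 23.6% and 19.7% in eCLIP and 20.7% and 17.3% in the inputs. In both regions the groups overlapped. From 684 to 760 both eCLIP libraries listed peaks, with up to 1342 and 193 reads, as did input 2 with 137 reads, but not input 1. From 1524 to 1561 the peaks of both eCLIP libraries, with 391 and 90 reads, overlapped one of input 1, with 63 reads, and input 2 listed none. Over the 9 windows of MT-RNR1, r was 0.951 between the eCLIP libraries, 0.940 between eCLIP 2 and input 2, and 0.883 between eCLIP 1 and input 2. It was 0.855 between the inputs, 0.774 between eCLIP 2 and input 1 and 0.641 between eCLIP 1 and input 1.

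**Figure D5:**
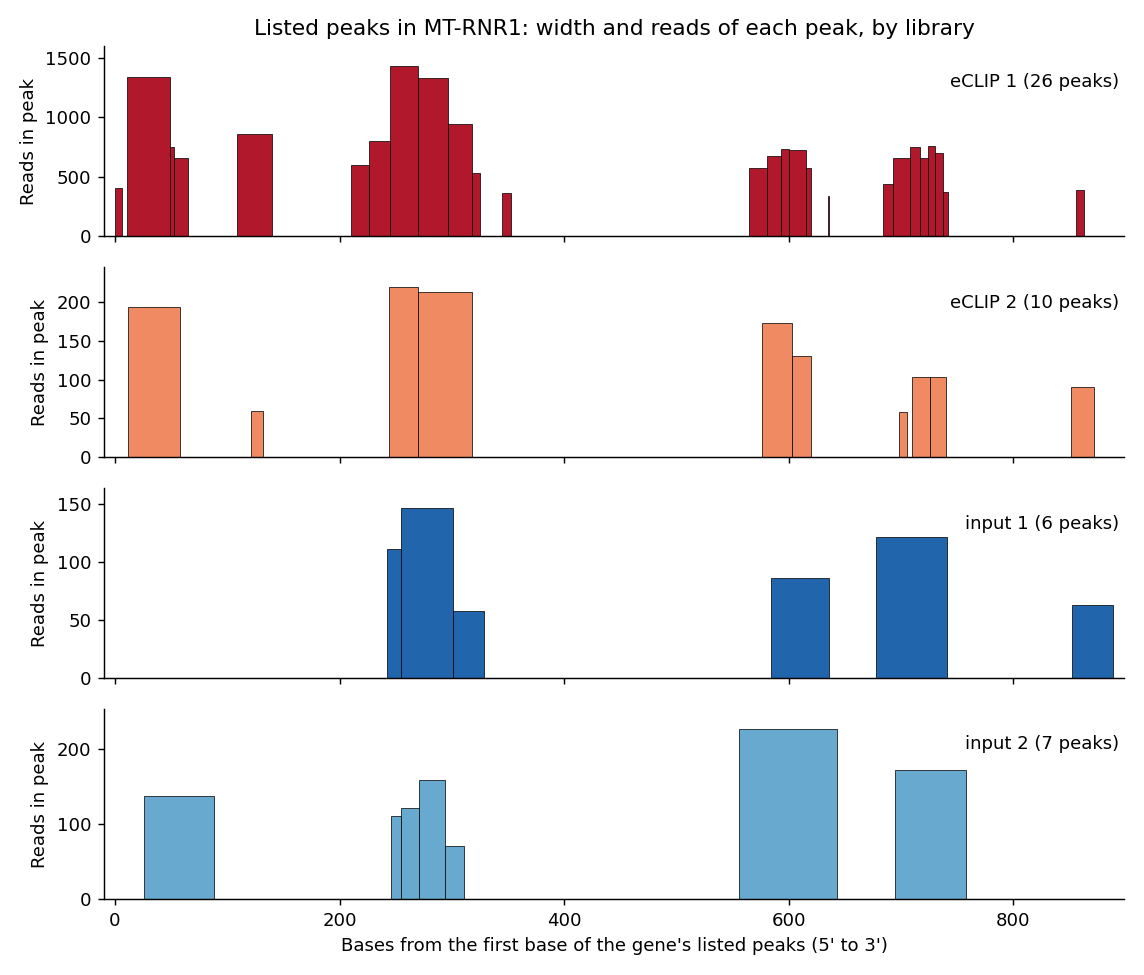
Peaks of MT-RNR1 in the 4 libraries, by distance in bases from the first base of the gene's listed peaks (5′ to 3′), with bar width equal to peak width and bar height equal to reads in the peak, on a scale of its own in each panel. The tallest bars of eCLIP 1, eCLIP 2 and input 1 fall in the same region, at 1430, 219 and 146 reads, and no library lists a peak in the stretch around 400 to 500 bases.

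Peak lists cannot tell reads of mitochondrial ribosomal RNA from reads of the near-identical copies of mitochondrial DNA in the nuclear genome. How reads that match both were assigned is not given in the sources used here, and its part in these values was not tested.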

How the data were processed

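Each library has its own deposited peak list. The tools used on the reads were cutadapt, STAR and SAMtools, with the hg19 build, per the submitters' processing notes. The caller, versions, settings and annotation are not stated in those notes or in any file header. The deposited p-value lies between 0 and 0.05, and the deposited score is 10 times its negative log10, cut to a whole number, capped at 1000, and 0 where p is 0 (checked on every line). The whole number that ends each peak's name, at least 3, was taken to be the peak's reads; no header says so. Shares used each interval and strand once, so peaks listed under several genes entered totals once.

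Overlaps needed 1 base on the same strand. Interval counts were tested on simulated peaks. Python 3.11.15 with pandas 2.3.3 was used. Named peaks include some, not all, of the 5 with most reads per gene and library. They also include those at the eCLIP-only places and others in the regions and at the borders described. Members and measures were chosen with earlier results of these data known. With 2 libraries a group and members chosen on their reads, values are given per library and no test was made.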

Additional observations from a re-analysis of the deposited data

How the results depend on the processing

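The log2 ratio of eCLIP to input share had no stable sign for MT-RNR1. It was -0.02 with all peaks, 0.094 with p-values of at most 0.001, 1.21 with lists cut to equal length, 0.48 with totals over chrM alone and -2.24 by bases covered, and it ran from -0.71 to 1.34 with 1 library left out. With the replicate number as a block it was 0.32, and -0.67 for MT-RNR2. Same-numbered libraries deviated together (r = 0.338 over 3130 genes listed in all 4), but no label says what a number marks, so this is a hint from the data. In both groups the library numbered 1 also had the longer list, 458932 against 39168 peaks in eCLIP and 60227 against 10483 in the inputs. The part of list length in this r was not tested. For MT-RNR2 the ratio was -1.85, stayed below 0 under the other 9 settings with all libraries, and ran from -2.83 to 1.86 with 1 library left out. Its size varied: it was -0.60 with lists cut to equal length and -0.31 with totals over chrM alone. The sign turned only without input 2. The count of 10 eCLIP-only peaks became 4 with touching peaks merged and 14 to 20 with an input left out. Spearman's rho of the eCLIP profiles of MT-RNR2 was 0.69, where Pearson's r was 0.83. The excess of reads in listed peaks past the midpoint of MT-RNR2 was 18.5 percentage points, and 8.51 to 28.4 with 1 library left out. It kept its sign in all 8 alternatives, which were added after the data were seen. Leaving out 1 library could not turn the sign, because both eCLIP values lay above both inputs. The remaining alternatives measured the same listed peaks in other ways, so the count of 8 is no independent support. With unknown depth and a high smallest listed peak, absence of a peak sets no limit on reads.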
